A study of Rattus norvegicus with 8 samples.

Results

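miR-103-3p and miR-107-3p are a pair of nearly identical microRNAs (miRNAs) whose hairpins lie inside the pantothenate kinase genes. They were taken by their names on the array, rno-miR-103-3p and rno-miR-107-3p, and are 2 of the 719 rat miRNAs it measured. They were measured in C6, an established rat glial tumour line labelled as glioblastoma, after treatment with 1 of 3 antipsychotic drugs. The groups were haloperidol at 2 µg/ml, risperidone at 4 µg/ml, clozapine at 25 µg/ml and untreated control cells. Drug was given anew each day over 5 days, all groups grew in medium with horse and bovine serum, and every group is the same single line. There were 2 arrays per group and 8 in all, each with 100 ng of total RNA labelled with Cy3, and the submitters describe the repeats as biological.

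A miRNA guides a silencing complex to messenger RNAs that pair with its seed, the bases near its 5′ end, and the paired messengers are translated less or degraded. Pantothenate kinases (Pank genes) carry out the opening step of coenzyme A synthesis, and the miR-103 and miR-107 hairpins lie in their introns, so that host and miRNA can come from the same transcript. In mouse liver and fat the pair is known for lowering insulin sensitivity, in part through caveolin-1. In human cancer cells it is known for repressing Dicer, the enzyme that cuts miRNA hairpins, and miR-107 has been described there as a target of p53. Both are abundant in brain.

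The mature sequences are shown because they set what the array can tell apart. They come from RefSeq's annotation of the rat assembly GRCr8, are written 5′ to 3′, and have the seed (bases 2 to 8) in capitals. The first is from Mir103a2, at chr3:138963278-138963300 on the plus strand, and the second from Mir107, at chr1:241750431-241750453 on the minus strand.
rno-miR-103-3p: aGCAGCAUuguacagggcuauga
rno-miR-107-3p: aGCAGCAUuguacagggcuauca
The miRNAs were identical at 22 of 23 bases and differed by G22C alone (miR-103-3p's base first, counted from the 5′ end), which is position 2 from the 3′ end. Their seed, GCAGCAU, was shared by only these 2 of the 693 mature rat names in that table. The nearest other mature sequence, compared without gaps, matched either miRNA at 13 of 23 bases.

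The hairpins are shown with the mature miRNA in capitals, since they place the pair in its host genes. The host of each is the gene whose annotated span holds it on the same strand in the same assembly.
Mir107, inside Pank1, chr1:241750418-241750504, minus strand: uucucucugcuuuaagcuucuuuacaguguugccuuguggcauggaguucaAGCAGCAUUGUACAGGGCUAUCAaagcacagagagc
Mir103a2, inside Pank2, chr3:138963227-138963312, plus strand: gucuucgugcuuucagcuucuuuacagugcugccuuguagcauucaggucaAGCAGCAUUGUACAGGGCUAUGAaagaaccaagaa
Mir103a1, inside Pank3, chr10:20748474-20748559, plus strand: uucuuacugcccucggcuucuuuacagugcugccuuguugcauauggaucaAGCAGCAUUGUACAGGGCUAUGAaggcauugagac
In all 3 hairpins the mature miRNA lay at positions 52 to 74. The Mir103a1 and Mir103a2 hairpins give the same mature miR-103-3p, so its signal cannot be divided between Pank2 and Pank3.

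Of the 719 miRNAs, at least 1 array detected 263 and every array 185. The scanner's log10 signal of the labelling spike-in was 2.73 on replicate 2 of risperidone and 2.88 on replicate 2 of clozapine, where each of the remaining arrays had 2.99 to 3.12. The same 2 arrays had the fewest miRNAs detected, 193 and 203. All 5 markers of glia and glioma were detected on all 8 arrays. Of the 4 miRNAs listed as neuronal, 2 were detected on any array: miR-129-5p on 8 and miR-133b-3p on 6. miR-124-3p and miR-137-3p were detected on 0. On replicate 2 of every drug group miR-133b-3p was at the floor of the scale (log2 -6.22), as was miR-206-3p, listed under skeletal muscle. At least 1 array also detected 3 of 4 markers of microglia and leukocytes and 1 of 2 of erythrocytes and serum. The same held for 1 of 1 of endothelium, 1 of 3 of skeletal muscle and 0 of 4 of epithelium. The leukocyte and erythrocyte markers detected were at or near the floor. Their log2 mean levels were -6.22 for miR-142-3p, -6.07 for miR-150-5p, -5.79 for miR-223-3p and -6.18 for miR-451-5p. The mean level of miR-206-3p was -5.26 and that of the endothelial miR-126a-3p -3.66. The summed level of the oligodendrocyte markers miR-219-5p and miR-338-3p, in units of each array's 75th percentile, was 0.997 to 1.35 with haloperidol, 0.913 to 1.58 with risperidone, 1.14 to 1.21 with clozapine and 0.436 to 0.770 in control cells. Most of it was miR-338-3p, whose log2 mean level was -0.12, against -3.95 for miR-219-5p. On control replicate 2 miR-219-5p was at -3.66, above haloperidol replicate 2 (-3.70), risperidone replicate 2 (-4.62) and both clozapine arrays (-4.60 and -3.85). It was below haloperidol and risperidone replicate 1 (-3.31 and -2.85). Neither marker passed the threshold of the limma fit below (mean of the drugs, adjusted p = 0.309 for miR-338-3p and 0.608 for miR-219-5p). The part of these markers in the results below was not tested. In bulk RNA, fewer cells of a type and less of a miRNA per cell cannot be told apart.

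miR-103-3p and miR-107-3p were detected on all 8 arrays, and the summed signal of each one's probes was above the array's 75th percentile of detected probes on every array. That percentile is over single probes. Taken singly, the brighter probe of each miRNA was above it on every array and the dimmer probe below it. After 5 days neither miRNA differed detectably between cells given any of the 3 drugs and control cells. Every fitted fold was between 0.968 and 1.12, and all 8 intervals, over both miRNAs and 4 comparisons, excluded a 2-fold change in either direction. Of the alternative settings, all 8 intervals reached 2-fold with no scaling between arrays (folds from 0.216 to 4.13) and with the percentile taken over all probes (from 0.570 to 3.35), and 1 did without haloperidol replicate 2 (miR-107-3p with haloperidol, up to 2.01).

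The deposited gene-level signal of miR-103-3p, not scaled between arrays, was 1977 and 1172 with haloperidol, 1492 and 431 with risperidone, 922 and 737 with clozapine, and 1091 and 1258 in control cells. That of miR-107-3p was 2255 and 1257 with haloperidol, 1645 and 428 with risperidone, 1100 and 842 with clozapine, and 1247 and 1302 in control cells. For both miRNAs risperidone replicate 2 was the lowest array and haloperidol replicate 1 the highest. The arrays themselves had the same extremes: the 75th percentile used for scaling was lowest on risperidone replicate 2, at 388, and highest on haloperidol replicate 1, at 1480.

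Levels are therefore given on the log2 scale after division by each array's 75th percentile, so that 0 is that percentile. The level of miR-103-3p was 0.98 and 0.83 with haloperidol, 1.02 and 0.70 with risperidone, 0.77 and 0.67 with clozapine, and 0.60 and 0.94 in control cells. After scaling the highest array was risperidone replicate 1 and the lowest control replicate 1. The group means were 0.90 ± 0.10 with haloperidol, 0.86 ± 0.23 with risperidone, 0.72 ± 0.07 with clozapine and 0.77 ± 0.24 in control cells (SD, n = 2 each). In order of the means, haloperidol came above risperidone, control and clozapine, and each neighbour in that order overlapped the next.

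The level of miR-107-3p was 1.17 and 0.93 with haloperidol, 1.16 and 0.69 with risperidone, 1.03 and 0.86 with clozapine, and 0.79 and 0.99 in control cells. Haloperidol replicate 1 was the highest array and risperidone replicate 2 the lowest. The group means were 1.05 ± 0.17 with haloperidol, 0.92 ± 0.33 with risperidone, 0.95 ± 0.12 with clozapine and 0.89 ± 0.14 in control cells (SD, n = 2 each). The order was haloperidol, clozapine, risperidone and control, and here too each neighbour overlapped the next.

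**Figure D1:**
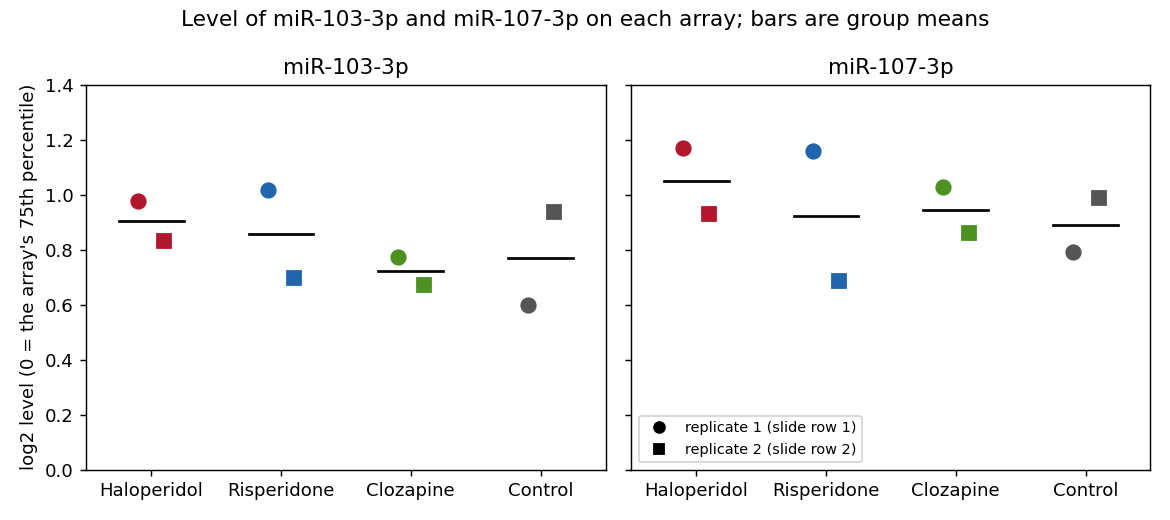
Level of miR-103-3p (left) and miR-107-3p (right) on each array, as log2 of the signal over the array's 75th percentile, by group. Circles are replicate 1, squares replicate 2 and bars group means. Replicate 1 lies above replicate 2 in each drug group and below it in control cells.

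The comparisons of each drug with control asked which miRNAs change in glial cells under antipsychotics. With limma over all 8 arrays and Benjamini-Hochberg adjustment over the 243 miRNAs tested, miR-103-3p differed from control by 0.14 with haloperidol (log2, SE 0.19, adjusted p = 0.719), by 0.09 with risperidone (SE 0.19, adjusted p = 0.790) and by -0.05 with clozapine (SE 0.19, adjusted p = 0.926). As folds these were 1.10 (95% interval 0.794 to 1.52), 1.06 (0.768 to 1.47) and 0.968 (0.699 to 1.34). The corresponding values for miR-107-3p were 0.16 (SE 0.21, adjusted p = 0.719), 0.03 (SE 0.21, adjusted p = 0.938) and 0.06 (SE 0.21, adjusted p = 0.926). As folds these were 1.12 (0.777 to 1.61), 1.02 (0.711 to 1.47) and 1.04 (0.722 to 1.495). Each difference was smaller than its standard error.

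The mean of the 3 drugs, which sets 6 arrays against the 2 control arrays, gave a log2 difference of 0.06 for miR-103-3p (SE 0.15, fold 1.04, interval 0.799 to 1.36, adjusted p = 0.817) and of 0.08 for miR-107-3p (SE 0.17, fold 1.06, interval 0.787 to 1.43, adjusted p = 0.783). A two-sided exact permutation test over the 28 ways to choose the control arrays gave p = 0.643 for miR-103-3p and p = 0.571 for miR-107-3p. The smallest p this test allows is 0.0357. It exchanged arrays freely between replicate numbers, so a pairing of replicates was not used. An F test among the 3 drug groups gave F = 0.515 for miR-103-3p and F = 0.215 for miR-107-3p, both with a limma adjusted p of 1. A difference among the drugs was not detectable with 2 arrays per group.

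Over all 243 miRNAs tested, limma called 0% in each of the 3 drugs against control, in the mean of the drugs and in the F test. An unadjusted p under 0.05 was found for 16 miRNAs with haloperidol, 21 with risperidone, 36 with clozapine, 37 for the mean of the drugs and 1 in the F test. With the replicate number as a block the counts called were 0, 1, 2, 7 and 0 in the same order, and neither miR-103-3p nor miR-107-3p was among them. Haloperidol had a median log2 difference of -0.15 over all miRNAs tested, risperidone of -0.15 and clozapine of -0.17, and both miRNAs lay above that median under every drug in this fit. With normexp background correction both lay below it with risperidone and clozapine. miR-103-3p with clozapine lay below it also with the dimmer probe alone, without the detection filter and without control replicate 1. With the dimmer probe the median was exactly 0, so lying below it says only that the difference was negative. Without the filter the median was over all 719 miRNAs, of which only 263 were detected on any array. The arrays of both miRNAs overlapped those of control under each drug. Among all miRNAs tested, 32.1%, 32.9% and 33.7% had both drug arrays below both control arrays with haloperidol, risperidone and clozapine, and 11.5%, 7% and 5.35% had both above. All 6 drug arrays lay below both control arrays for 19.8% of miRNAs and above both for 1.65%, and neither miR-103-3p nor miR-107-3p was among these.

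**Figure D2:**
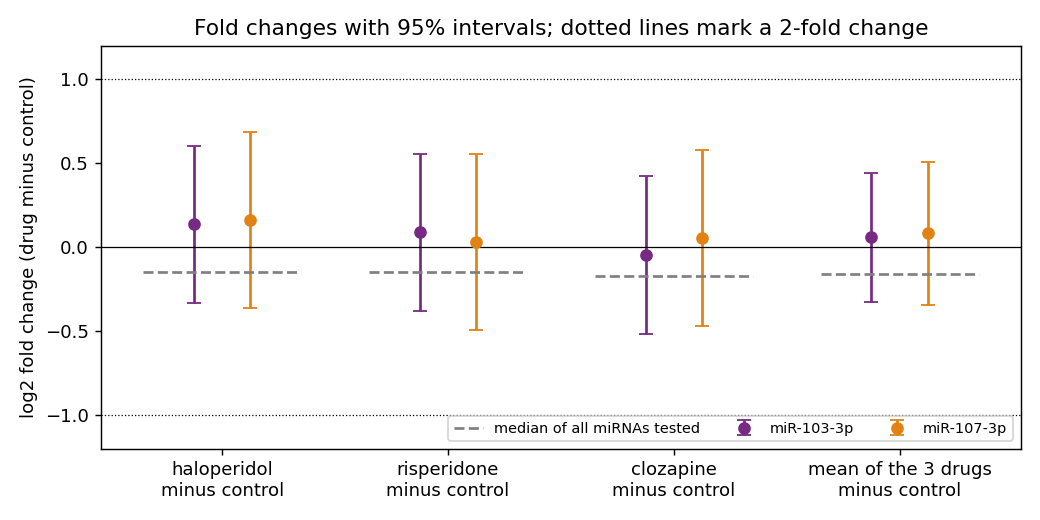
Log2 difference from control of miR-103-3p and miR-107-3p for each drug and for the mean of the 3 drugs. Points are limma estimates, bars their 95% intervals, dashed grey lines the median of the 243 miRNAs tested and dotted lines a 2-fold change. Every interval spans 0 and stays inside the dotted lines.

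Replicates 1 and 2 lay in different rows of the slide, so each drug array was set against the control array of its own row. In row 1 miR-103-3p was above control by 0.38 with haloperidol, 0.42 with risperidone and 0.17 with clozapine (log2 differences). In row 2 the differences were -0.11, -0.24 and -0.27 in the same order. miR-107-3p likewise gave 0.38, 0.37 and 0.24 in row 1 and -0.05, -0.30 and -0.12 in row 2. The 3 differences of a row share 1 control array and are not independent. Over all miRNAs tested the medians were -0.16, -0.08 and -0.13 in row 1 and -0.14, -0.26 and -0.25 in row 2. In row 2 miR-103-3p with clozapine and miR-107-3p with risperidone lay below these medians. The medians did not turn in sign, but single miRNAs did, with all 3 drugs above control in row 1 and below it in row 2. Among them were miR-31a-5p, miR-29a-3p and miR-17-5p, and the share of such miRNAs was not counted. The risperidone and clozapine arrays of row 2 were also the 2 arrays with the lowest labelling spike-in signal. Without control replicate 1, the mean of the drugs minus control was -0.11 for miR-103-3p and -0.01 for miR-107-3p, and without control replicate 2 it was 0.23 and 0.18.

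Each miRNA was read by 2 probes of 10 spots each, and with 1 base between the miRNAs a probe for one could bind the other. The probe sequences were not analysed here, so this was looked at in the signals alone. For miR-103-3p these were A_26_P00001304 and A_26_P00001305, and for miR-107-3p A_26_P00001308 and A_26_P00001309, the brighter of each pair first. All 80 spots of each probe over the 8 arrays were well above background and none was saturated. The spots of a brighter probe varied by 5.75% to 9.91% (miR-103-3p) and 4.54% to 7.68% (miR-107-3p) of their mean on an array, and those of a dimmer probe by 1.46% to 6.71% and 1.47% to 3.16%.

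Both probes of a miRNA gave nearly the same differences from control. For miR-103-3p the brighter probe gave 0.15 with haloperidol, 0.09 with risperidone and -0.04 with clozapine, and the dimmer probe 0.10, 0.08 and -0.07 (log2). For miR-107-3p the brighter probe gave 0.16, 0.03 and 0.04, and the dimmer probe 0.17, 0.03 and 0.09. The log2 distance between the 2 probes of miR-103-3p stayed between 1.03 and 1.15 over the 8 arrays, and that of miR-107-3p between 1.31 and 1.44. These distances are read only for their change over the arrays, since probes differ in brightness. They differed by slide row, without overlap and in opposite directions. For miR-103-3p the distance averaged 1.11 in row 1 and 1.06 in row 2, and for miR-107-3p 1.35 and 1.41. The cause was not tested.

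**Figure D3:**
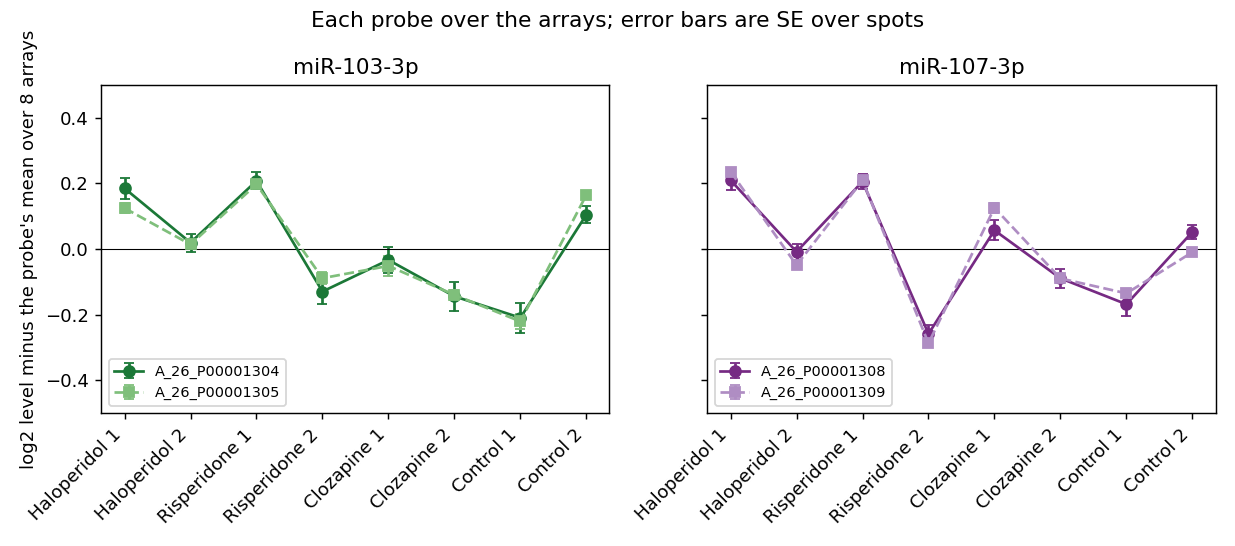
Level of each probe on each array minus that probe's mean over the 8 arrays (log2), for miR-103-3p (left) and miR-107-3p (right). Circles with solid lines are the brighter probe, squares with dashed lines the dimmer one, and bars the SE over spots. Within each miRNA both probes rank risperidone replicate 1 and haloperidol replicate 1 among the higher arrays.

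Whether the pair changed unequally was read from the difference of miR-107-3p minus miR-103-3p on each array, again only for its change over arrays. On the log2 scale it was 0.19 and 0.10 with haloperidol, 0.14 and -0.01 with risperidone, 0.25 and 0.19 with clozapine, and 0.19 and 0.05 in control cells. The drug arrays averaged 0.02 above the control arrays (two-sided exact permutation test, 6 against 2 arrays exchanged freely between rows, p = 0.821). That mean joins drugs on either side of control. Within rows 1 and 2, clozapine minus control was 0.06 and 0.14, risperidone minus control -0.05 and -0.06, and haloperidol minus control -0.0029 and 0.05, and the signs of clozapine and risperidone were the same in both probe pairs. No test was run on a single drug here, since the smallest exact permutation p with 2 arrays on each side is 0.333.

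The difference was lower in slide row 2 than in row 1 in all 4 groups, averaging 0.08 in row 2 and 0.19 in row 1. Between the brighter probes it was 0.25 and 0.20 with haloperidol, 0.22 and 0.10 with risperidone, 0.32 and 0.28 with clozapine, and 0.27 and 0.17 in control cells. Between the dimmer probes it was 0.04 and -0.13 with haloperidol, -0.06 and -0.27 with risperidone, 0.11 and -0.02 with clozapine, and 0.02 and -0.24 in control cells. In both probe pairs and both rows clozapine was the highest group and risperidone the lowest. The SE over spots was 0.034 to 0.057 for the brighter pair and 0.010 to 0.034 for the dimmer pair, and covers the spots of 1 array only. The groups also overlapped: clozapine replicate 2 lay below haloperidol replicate 1 between the dimmer probes.

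**Figure D4:**
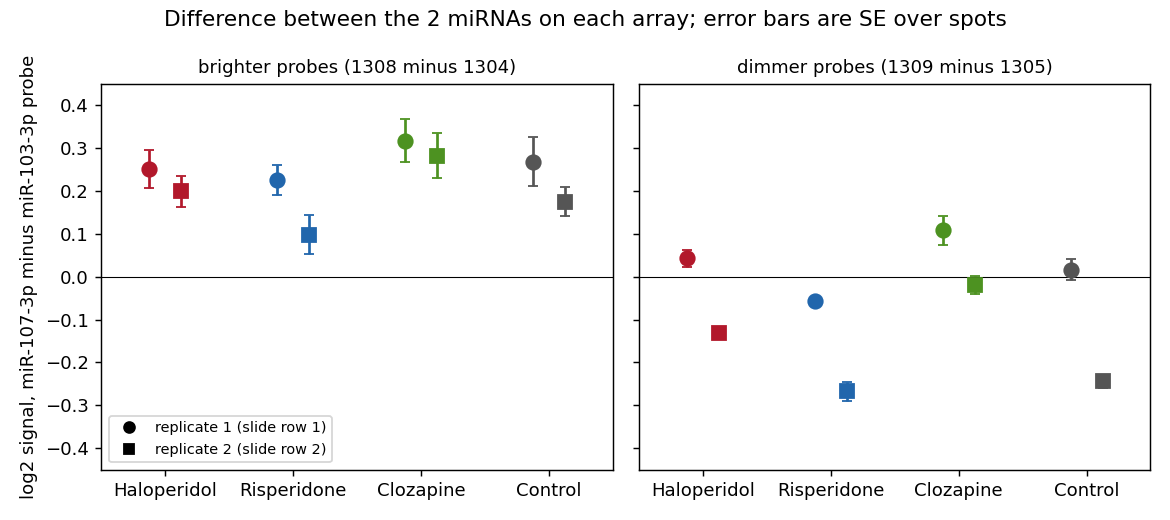
Log2 signal of a miR-107-3p probe minus a miR-103-3p probe on each array, for the brighter probes (left) and the dimmer probes (right), by group. Circles are replicate 1 (slide row 1), squares replicate 2 (row 2) and bars the SE over spots. Every square lies below the circle of its group, and clozapine is highest in each row.

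The SD of the log2 level over the 8 arrays, drugs and control together, was 0.15 for miR-103-3p and 0.17 for miR-107-3p, against a median of 0.31 for the 185 miRNAs detected on all arrays, so both varied less than most. Of these 185, 16 (8.65%) had an SD no larger than that of miR-103-3p and 23 (12.4%) one no larger than that of miR-107-3p. These shares were not adjusted for the level of the miRNAs.

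**Figure D5:**
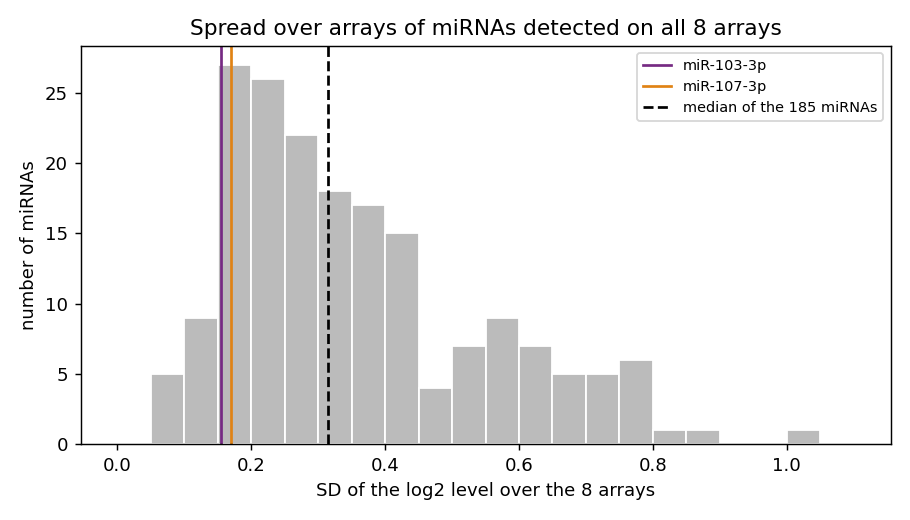
Number of miRNAs by the SD of their log2 level over the 8 arrays, for the 185 miRNAs detected on all arrays. Coloured lines mark miR-103-3p and miR-107-3p and the dashed line the median of 0.31. Both lines lie left of the median.

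The miRNA whose pattern over the 8 arrays was most like that of miR-103-3p was miR-455-5p (Pearson r = 0.961 among 184 others), followed by miR-181c-5p (0.901), miR-339-3p (0.880), miR-219-5p (0.868) and miR-107-3p (0.858). For miR-107-3p it was miR-340-5p (0.946), followed by miR-455-5p (0.895), miR-31a-5p (0.875), miR-449a-5p (0.872) and miR-181c-5p (0.859), with miR-103-3p next. miR-339-3p was at the floor on risperidone replicate 2 and on both clozapine arrays, so its r rests partly on values set by the floor. These correlations describe 8 arrays that share 1 slide and 1 scaling, and the median r over all others was 0.18 and 0.23. By the size of the deviations rather than their shape the pair was closer: the root mean square difference of their centred log2 levels was 0.082, rank 2 of 184 from either side, after miR-31a-5p. Both miRNAs and miR-31a-5p (SD 0.13) varied little over the arrays, which by itself keeps this difference small. The part of probes that bind both miRNAs was not tested.

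The other arms of the hairpins, miR-103-1-5p, miR-103-2-5p and miR-107-5p, were detected on 0 arrays. Of the 160 spots for each over all arrays, 1, 0 and 0 were well above background. In C6 cells only the 3p arms of these hairpins were detected.

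The miR-15/16 family, which restrains the cell cycle, has a seed offset by 1 base from that of miR-103-3p and miR-107-3p, with the 6 bases GCAGCA in common. Its brightest member in these cells is shown for comparison.
rno-miR-16-5p: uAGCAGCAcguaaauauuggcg
All 5 members were tested and 0 passed the threshold. With haloperidol 2 were above and 3 below 0, with risperidone 1 and 4, and with clozapine 2 and 3, with medians of -0.09, -0.29 and -0.04 (log2). miR-16-5p had a mean level of 3.20 ± 0.25 with haloperidol, 3.07 ± 0.24 with risperidone, 3.19 ± 0.12 with clozapine and 3.36 ± 0.11 in control cells (SD, n = 2 each). miR-195-5p had the family's largest difference, -0.39 for the mean of the drugs (limma adjusted p = 0.614), with risperidone replicate 2 at the floor, and -0.15 against control replicate 2 alone.

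Among 28 other miRNAs inside introns of protein-coding genes, 25 were tested and 0 passed. With haloperidol 11 were above and 14 below 0, and with risperidone and with clozapine 8 above and 17 below, with medians of -0.12, -0.12 and -0.14, close to those of all miRNAs tested. The brightest, miR-26a-5p, from introns of small CTD phosphatase genes, differed by -0.16 for the mean of the drugs, and by -0.016 against control replicate 2 alone. The largest difference was that of miR-33-5p, from an intron of the sterol regulator Srebf2, at 1.30 (SE 0.74, limma adjusted p = 0.405). Control replicate 1 was at the floor for miR-33-5p, and against control replicate 2 alone the difference was 0.51.

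Of 11 other miRNAs studied in insulin and lipid metabolism, 9 were tested and 0 passed, with 5 above and 4 below 0 under each drug and medians of 0.06 (haloperidol), 0.02 (risperidone) and 0.05 (clozapine). The brightest, miR-29a-3p, which acts on insulin signalling in mouse liver and muscle, differed by 0.09 for the mean of the drugs, and by -0.12 against control replicate 2 alone. Of 8 miRNAs linked to p53, 5 were tested and 0 passed, with 4 above 0 under haloperidol and 3 under each other drug, and medians of 0.68, 0.32 and 0.06. miR-34a-5p, a direct p53 target, had a mean level of 1.22 ± 0.11 with haloperidol, 0.86 ± 0.24 with risperidone, 0.60 ± 0.04 with clozapine and 0.54 ± 0.31 in control cells (SD, n = 2 each). The list medians are this miRNA's own differences. For the mean of the drugs miR-34a-5p differed by 0.35, and by 0.14 against control replicate 2 alone. miR-34b-5p differed by 0.76 for the mean of the drugs, and by 0.05 against control replicate 2 alone. miR-107-3p itself gave 0.16, 0.03 and 0.06 with haloperidol, risperidone and clozapine.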

How the data were processed

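Members and lists were chosen with earlier results of these data known. Per the file headers, the deposited intensity values (linear, not scaled between arrays) came from Agilent Feature Extraction 10.7.3.1, and the deposited flags are of unit other (0 or 1). Background-subtracted signals of the spots not called outliers were averaged within each probe and added up for each miRNA. Each array was scaled by its own 75th percentile, taken over the 291 probes with more than 50% of spots well above background on all arrays. Scaled values under 0.0134 (log2 -6.22), which is the 5th percentile of those detected, were set to that floor before log2. A miRNA was tested if some group had it detected on both its arrays, which left 243. Group means were fitted with limma 3.58.1 (R 4.3.3, lmFit then eBayes, 8 arrays, 4 residual degrees of freedom). P-values were two-sided, adjusted by Benjamini and Hochberg, threshold 0.05. The script was tested on simulated data.

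The replicate numbers were taken to pair the arrays for the differences within rows: replicates with the same number deviated together in all 6 pairs of groups (correlation 0.16 to 0.71), and the number was the slide row. The main fit did not use this pairing, and the replicate number entered as a block only in an alternative. The slide column was the group, so column and group cannot be told apart. The number of arrays limits the precision. Named miRNAs were, per list, the brightest and that with the largest difference, and the 5 most correlated with each of the pair. Alternatives changed the scaling, background correction, probe summary, floor, filter, variance model, block and arrays. Normexp used spot and background medians.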

Additional observations from a re-analysis of the deposited data

Results flagged for a closer look

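The difference between drug and control arrays had opposite signs in the 2 slide rows for both miRNAs, and whether the rows differ was not tested. Other miRNAs, such as miR-31a-5p, turned in the same way, and their share was not counted. For miR-103-3p the mean of the 3 drugs minus control was 0.32 in row 1 and -0.21 in row 2 (log2), with all 3 drugs above control in row 1 and all 3 below it in row 2. For miR-107-3p the same means were 0.33 in row 1 and -0.16 in row 2, again with all 3 drugs on the same side in each row. The 3 differences of a row share 1 control array: miR-103-3p was at 0.60 on control replicate 1 and at 0.94 on control replicate 2, and miR-107-3p at 0.79 and 0.99. Row 2 also holds the 2 arrays with the lowest labelling spike-in signal, those of risperidone (2.73) and clozapine (2.88).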

How the results depend on the processing

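None of the 226 values of miR-103-3p and miR-107-3p under the alternatives passed the threshold, the smallest limma adjusted p being 0.340 and the smallest unadjusted p 0.129. Differences near 0 changed sign in 22 of them, and the cause was not tested. With no scaling the differences were -0.53 (miR-103-3p, risperidone), -0.59 (miR-107-3p, risperidone), -0.37 (miR-107-3p, clozapine), -0.20 (miR-103-3p, mean of the drugs) and -0.18 (miR-107-3p, mean of the drugs), where the medians of all miRNAs were -0.64 with risperidone and -0.55 with clozapine. miR-103-3p with clozapine was at 0.60 with the percentile over all probes (median of all miRNAs 0.42), 0.053 with quantile normalization, 0.0060 with cyclic loess and, in an alternative chosen after seeing the data, 0.0052 without both arrays of low spike-in signal. miR-107-3p with risperidone was at -0.053 with quantile normalization and -0.013 with the deposited gene-level signal, and the drugs minus control in miR-107-3p minus miR-103-3p was -0.070 with quantile normalization. Relative to the median of all miRNAs, both were above 0 with risperidone in the main setting (0.24 and 0.18) and below it with normexp (-0.28 and -0.34).

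Counts of miRNAs called were 0 in every comparison, and became 1 with haloperidol, 1 with risperidone and 1 for the mean of the drugs using each miRNA's dimmer probe, and 1 for the mean of the drugs without the detection filter. With the replicate block they were 1 with risperidone, 2 with clozapine and 7 for the mean of the drugs, and the block changed no other call. Leaving out each array in turn gave 0 to 5 called with haloperidol, 0 to 6 with risperidone, 0 to 7 with clozapine, 0 to 7 for the mean of the drugs and 0 to 0 in the F test, the highest without control replicate 2. The same gave, for miR-103-3p, -0.033 to 0.30 with haloperidol, -0.081 to 0.26 with risperidone, -0.22 to 0.12 with clozapine and -0.11 to 0.23 for the mean of the drugs. For miR-107-3p it gave 0.04 to 0.28, -0.20 to 0.27, -0.042 to 0.15 and -0.015 to 0.18 in the same order, and for the difference of the pair -0.048 to 0.095.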
